A study of Homo sapiens with 12 samples.

Results

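The pentose phosphate and NADPH supply genes described here are 9 genes: PGD, PGLS, TKT, TALDO1, RPIA, RPE, ME1, IDH1 and NADK. They were chosen by gene symbol, with earlier results of these data known. The values of their Ensembl transcripts were summed per symbol, which gave 9 of the 19647 genes in the table. RNA sequencing was done on 12 libraries of A549, a human lung adenocarcinoma cell line labelled as non-small cell lung cancer, in 4 groups of 3. The groups are A549 cells overexpressing NR0B1 (OE), the control of that overexpression (OE control, titled OEC), A549 cells with NR0B1 knockdown by a short hairpin RNA (KD), and the control of the knockdown (KD control, titled shNC). The genotype label of both controls is WT. NR0B1 (DAX1) encodes a nuclear receptor without a known ligand, best known as a repressor of transcription. No group received a drug or other treatment, and the labels give neither the vectors, nor the hairpin sequence, nor whether a line was a pool or a clone. The title of the study names glutathione metabolism and ferroptosis, and NADPH is the reductant that keeps glutathione in its reduced form.

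The pentose phosphate pathway leaves glycolysis at phosphorylated glucose. Its oxidative branch reduces NADP to NADPH, with PGLS hydrolysing phosphogluconolactone and PGD, the phosphogluconate dehydrogenase, giving NADPH and ribulose phosphate. Its non-oxidative branch is reversible: RPIA turns ribulose phosphate into ribose phosphate, RPE turns it into xylulose phosphate, and the transketolase TKT and the transaldolase TALDO1 pass carbon units between sugar phosphates and back to glycolysis. Outside the pathway, the cytosolic malic enzyme ME1 and the cytosolic isocitrate dehydrogenase IDH1 make NADPH, and the NAD kinase NADK makes the NADP on which all of them depend. A549 cells carry a loss-of-function KEAP1 mutation that leaves the transcription factor NRF2 active, and PGD, TKT, TALDO1, ME1 and IDH1 are known NRF2 targets.

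The libraries held between 15049011 and 22797076 expected counts. NR0B1 itself stood at 40.2, 33.4 and 35.2 FPKM in OE libraries, against 6.99, 24.6 and 22.02 FPKM in OE control libraries, and at 1.28, 1.36 and 2.45 FPKM in KD libraries, against 7.0, 9.01 and 5.47 FPKM in KD control libraries. The sets did not overlap within either arm. The knockdown passed edgeR's test (log2 fold change -2.06, adjusted p = 0.00593), while NR0B1 did not pass with overexpression (0.99, adjusted p = 0.0912). Between the controls NR0B1 was 2.63-fold higher in OE control than in KD control libraries (1.40, adjusted p = 0.0189), with OE control replicate 1 inside the KD control range. OE control replicate 1 and KD replicate 2 stood apart from the replicates of their group over all genes. The summed FPKM of the A549 markers NQO1, AKR1B10 and ALDH1A1 ran from 2979 to 5913 over the libraries. Of 5 carcinoma epithelial markers KRT8 and KRT18 were called in neither arm, and EPCAM stayed below 1 FPKM in every OE and OE control library. CDH1 was lower with overexpression (-1.01, adjusted p = 0.00215), and KRT19 (1.44, adjusted p = 0.0202), EPCAM (1.74, adjusted p = 0.0093) and CDH1 (0.48, adjusted p = 0.0306) were higher in the knockdown. The epithelial sum ran from 2039 to 2946 FPKM in OE and from 2320 to 2585 FPKM in OE control libraries, and from 1257 to 2771 FPKM in KD and from 2482 to 2953 FPKM in KD control libraries. The summed FPKM of 4 fibroblast markers reached at most 0.76 and that of 3 endothelial markers at most 0.28 in any library. Of 3 leukocyte markers CD3E was listed at 0 and 1, CD68, reached 1 FPKM. The leukocyte sum ran from 42.3 to 57.9 FPKM in OE and from 44.6 to 56.9 FPKM in OE control libraries, and from 18.4 to 59.6 FPKM in KD and from 15.1 to 22.8 FPKM in KD control libraries, and the part of these markers in the results was not tested. Nothing in the labels makes the replicates separate cultures, so p-values measure only the spread between these libraries, which may be technical.

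Levels are FPKM, which is scaled to transcript length and library size and can be compared between genes. Over the 12 libraries TKT averaged 583 FPKM and PGD 565 FPKM, ranks 81 and 84 among the 19647 genes. Their ranges overlapped almost fully, from 419 to 778 FPKM for TKT and from 414 to 718 FPKM for PGD. IDH1 followed at 99.1 FPKM, with a range of 71.1 to 177 FPKM, and TALDO1 at 73.8 FPKM, with a range of 53.9 to 91.9 FPKM. An assembled transcript row with the symbol TALDO1 is left out of this level. Its group means ran from 92.5 to 113 FPKM, so the order of IDH1 and TALDO1 rests on leaving it out. ME1, RPE and PGLS formed a middle set at 33.9, 29.1 and 25.8 FPKM whose ranges overlapped each other. NADK averaged 14.3 FPKM and overlapped PGLS at its upper end. RPIA averaged 4.9 FPKM, and its highest library, at 7.08 FPKM, lay below the lowest library of every other gene of the set. RPIA also rested on the fewest reads, between 97 and 262 expected counts a library, while TKT had between 16657 and 40692. All 9 genes passed the filter of 1 FPKM or more in at least 3 libraries.

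**Figure D1:**
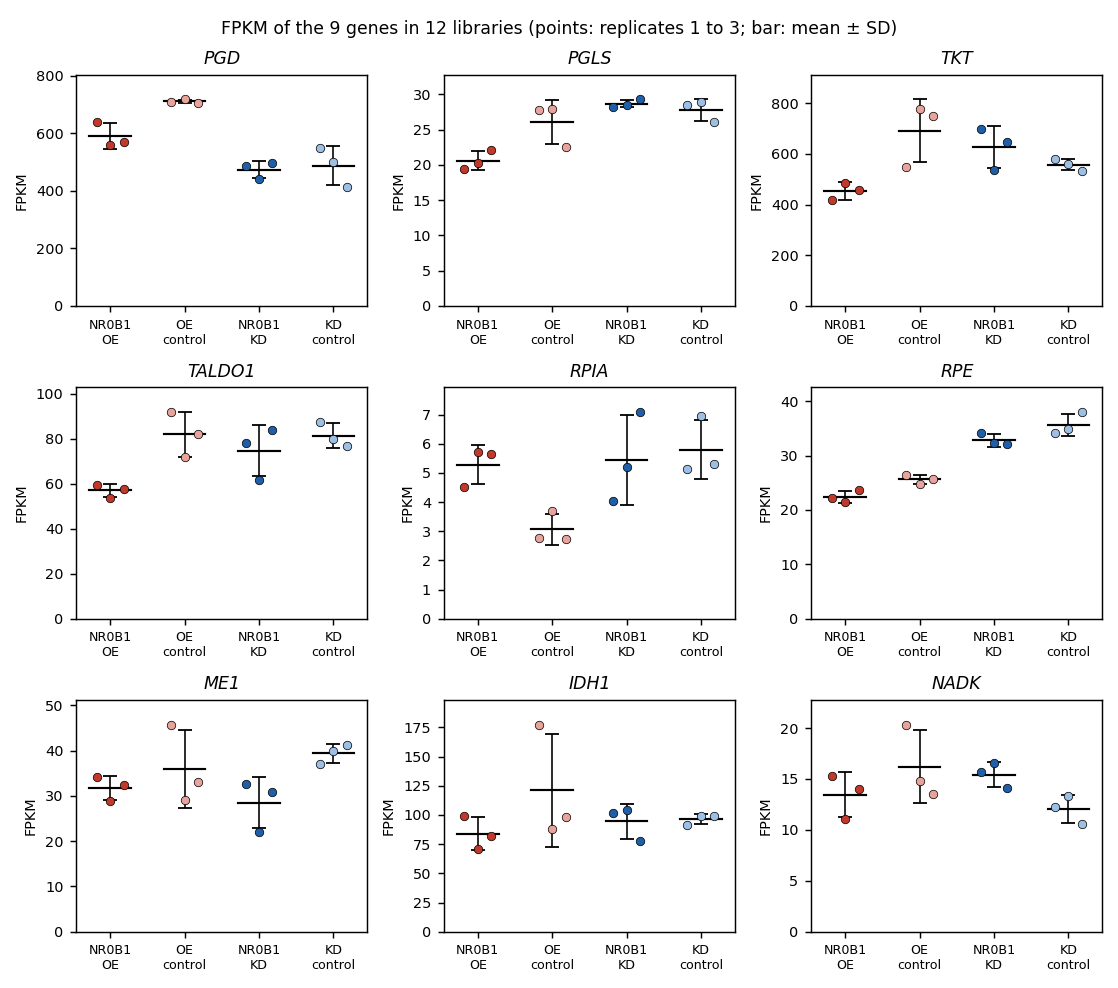
FPKM (y axis, from 0) of each gene in the 3 libraries of NR0B1 OE, OE control, NR0B1 KD and KD control cells; points are replicates 1 to 3 from left to right, bars are means ± SD. TKT, TALDO1, PGD, PGLS and RPE lie lower and RPIA higher in OE libraries than in any OE control library.

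Because several of these genes are known NRF2 targets, the promoters of the set were searched for the core of the antioxidant response element, the site NRF2 binds with small MAF proteins. RefSeq promoter windows (GRCh38.p14, 250 bases before to 50 after a start) matched all 9 genes, with 12 windows in all since IDH1 and NADK have several starts. The core TGACNNNGC, on either strand, occurred in 4 of the 12 windows (33.3%), against 13.3% of 35116 windows of all genes. The genes were PGD, RPE, ME1 and IDH1. Shown are 60 bases around each match, 5′ to 3′ on the strand of the gene, with the match in capitals. That of PGD is on the opposite strand, so its capitals are the reverse complement of the core.
PGD, chr1:10398838-10398897, plus strand: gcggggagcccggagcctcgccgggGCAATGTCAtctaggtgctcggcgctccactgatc
RPE, chr2:210002462-210002521, plus strand: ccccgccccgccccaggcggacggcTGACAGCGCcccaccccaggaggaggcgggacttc
ME1, chr6:83431154-83431213, minus strand: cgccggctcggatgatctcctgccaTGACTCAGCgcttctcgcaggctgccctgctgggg
IDH1, chr2:208255180-208255239, minus strand: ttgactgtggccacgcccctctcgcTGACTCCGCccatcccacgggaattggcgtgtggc
The ME1 window held a second match, after the start and not shown. The ME1 match shown overlaps the AP-1 site TGANTCA, which 1 of the 12 windows and 7.71% of all windows held. None of these 4 genes was called in either arm by edgeR, with PGD nearest at 0.0578.

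The windows of TKT, TALDO1 and RPIA, the genes called with overexpression, held no match to the antioxidant response element core, which says only that these letters are not in these windows. They held the GC box GGGCGG, on either strand, as did 11 of the 12 windows and 45% of all windows. Shown are the last 80 bases before the start of TKT and TALDO1, the genes called lower with overexpression. Sequences read 5′ to 3′ on the strand of the gene, with GC boxes in capitals.
TKT, chr3:53256023-53256102, minus strand: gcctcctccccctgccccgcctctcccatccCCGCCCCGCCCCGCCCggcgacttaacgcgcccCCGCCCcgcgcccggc
TALDO1, chr11:747384-747463, plus strand: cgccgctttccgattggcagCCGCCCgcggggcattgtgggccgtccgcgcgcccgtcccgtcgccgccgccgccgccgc
The TKT window was 70.7% and the TALDO1 window 75% G and C, against a median of 58.7% over all windows. Windows of members not called ran from 48% to 74.7%, both of these NADK windows, with ME1 at 73.7%. Over the gene bodies, TKT lies at chr3:53224707-53256052 (minus strand) and TALDO1 at chr11:747329-765024 (plus strand) in GENCODE 29 (GRCh38).

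With overexpression, TKT and TALDO1 fell and RPIA rose, while PGD, PGLS, RPE, ME1, IDH1 and NADK did not pass the test. PGD and PGLS of the oxidative branch also lay lower, at -0.34 and -0.36 (edgeR adjusted p of 0.0578 and 0.0517). A difference between the branches was not tested. Of the 9 genes 1 rose and 2 fell, in a comparison where 18.1% of the 11908 genes tested were called, 9.87% higher and 8.2% lower. The median log2 fold change was -0.34 over the 9 genes and -0.031 over all genes tested, and 8 of the 9 values were negative. The set was chosen with earlier results of these data known, so these values are a description. Calls are at an adjusted p below 0.05 from edgeR's quasi-likelihood test on counts, with Benjamini-Hochberg adjustment over all genes tested. For 6 of the 9 genes the FPKM of OE and OE control libraries did not overlap, which held for 41.6% of all genes tested. A two-sided exact permutation test gave p = 0.1 for each of these 6 genes, the smallest value that 3 against 3 libraries allow.

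In the oxidative branch, PGD stood at 641, 558 and 570 FPKM in OE libraries, against 709, 718 and 705 FPKM in OE control libraries. The control libraries lay close together and every OE library lay below them. The log2 fold change was -0.34 (SE 0.11), which missed the threshold at an adjusted p of 0.0578 by edgeR. DESeq2, which called 25.9% of all genes against 18.1% by edgeR, called PGD lower at an adjusted p of 0.0113. PGD passed in 5 of 23 alternatives, with adjusted p-values up to 0.19. PGLS stood at 19.4, 20.3 and 22.1 FPKM in OE libraries, against 27.8, 27.9 and 22.5 FPKM in OE control libraries. OE replicate 3 and OE control replicate 3 nearly met, and the log2 fold change of -0.36 (SE 0.12) did not pass (edgeR adjusted p = 0.0517). Leaving out OE control replicate 3, the control nearest the OE libraries, widens this difference and adds no support. PGLS then passed at -0.46 (edgeR adjusted p = 0.0402), where 7.87% of all genes were called. It passed in 6 of 23 alternatives.

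TKT, the transketolase, stood at 419, 487 and 456 FPKM in OE libraries, against 550, 778 and 748 FPKM in OE control libraries. Its OE libraries lay together below the controls, of which replicate 1 was the lowest. In CPM (counts scaled to library size), TKT averaged 1294 ± 96.5 in OE libraries and 2002 ± 326 in OE control libraries (SD, n = 3 each). This was 1.55-fold lower (log2 fold change -0.63, SE 0.14, edgeR adjusted p = 0.0146). The call ended without any of 4 libraries, namely OE replicates 1 and 3 (adjusted p of 0.0558 and 0.0643) and OE control replicates 2 and 3 (0.0612 and 0.0586). In these fits the log2 fold change lay between -0.62 and -0.55. The share of all genes called was between 6.82% and 10.3%, against 18.1% in the main fit. Without both libraries that stand apart, the lowest control among them, the value was -0.76 (adjusted p = 0.000226), where 37.9% of all genes were called.

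TALDO1, the transaldolase, stood at 59.7, 53.9 and 57.9 FPKM in OE libraries, against 91.9, 72.0 and 82.0 FPKM in OE control libraries. All OE libraries lay below all controls, and TALDO1 was 1.45-fold lower (log2 fold change -0.53, SE 0.14, edgeR adjusted p = 0.0235). The call ended without OE replicates 1, 2 or 3 (adjusted p of 0.0519, 0.0886 and 0.0791) or OE control replicate 3 (0.0654). In these fits the log2 fold change lay between -0.57 and -0.48. The share of all genes called was between 6.82% and 10.3%, against 18.1% in the main fit. A further row of the table, a transcript assembled by the authors and given the symbol TALDO1, held between 41.5% and 54% of the expected counts under that symbol. With that row added the log2 fold change was -0.41 and did not pass (adjusted p = 0.112).

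RPIA, which makes the ribose phosphate used for nucleotides, was the member that rose. It stood at 4.5, 5.72 and 5.64 FPKM in OE libraries, against 2.77, 3.69 and 2.73 FPKM in OE control libraries. The OE libraries lay above all OE controls, in the range of the KD and KD control libraries, which ran from 4.04 to 7.08 FPKM. RPIA was 1.71-fold higher (log2 fold change 0.77, SE 0.23, edgeR adjusted p = 0.0425). This call ended without any of 9 libraries: OE replicates 1 to 3 (adjusted p of 0.0602, 0.12 and 0.124), OE control replicates 1 to 3 (0.0738, 0.0639 and 0.13) and KD control replicates 1 to 3 (0.0586, 0.0545 and 0.06). In these fits the log2 fold change lay between 0.69 and 0.91. Without OE control replicate 1 25.4% of all genes were called, and without the others between 6.82% and 14.9%, against 18.1% in the main fit. The RPIA call also ended without a filter on low genes (0.0598) and without both libraries that stand apart (0.0602).

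RPE, the epimerase at the same branch point, stood at 22.1, 21.5 and 23.7 FPKM in OE libraries, against 26.4, 24.7 and 25.7 FPKM in OE control libraries. The FPKM values did not overlap, but CPM did, at 62.2 ± 1.98 in OE and 65.9 ± 7.58 in OE control libraries (SD, n = 3 each). The log2 fold change was -0.08 (SE 0.12, edgeR adjusted p = 0.642), with an approximate 95% interval of -0.35 to 0.18. KANSL1L lies on the opposite strand across RPE and was itself lower in OE libraries (log2 fold change -1.42, SE 0.39, adjusted p = 0.0311). Strand use in counting is not given in the sources used here, so reads of the overlap cannot be told apart.

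IDH1 stood at 99.0, 71.1 and 82.3 FPKM in OE libraries, against 177, 88.1 and 98.1 FPKM in OE control libraries. OE control replicate 1 lay far above the other controls, which overlapped with the OE libraries. The log2 fold change of -0.55 (SE 0.24) did not pass (edgeR adjusted p = 0.131), and it was -0.16 without both libraries that stand apart. The malic enzyme ME1 stood at 34.1, 28.9 and 32.3 FPKM in OE libraries, against 45.7, 29.2 and 33.1 FPKM in OE control libraries (log2 fold change -0.20, SE 0.19, adjusted p = 0.485). NADK stood at 15.3, 11.0 and 14.0 FPKM in OE libraries, against 20.3, 14.8 and 13.6 FPKM in OE control libraries (-0.22, SE 0.16, adjusted p = 0.361). In ME1 and NADK, too, OE control replicate 1 was the highest library and the groups overlapped. That library was the highest of all 12 for 4 genes of the set, TALDO1, ME1, IDH1 and NADK, and without it TALDO1 and TKT were at -0.43 and -0.76.

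In the knockdown arm 0 of the 9 genes passed edgeR's test, where 23.9% of the genes tested were called. At an unadjusted p below 0.05 there were ME1 and NADK, and DESeq2 and limma called 0 as well. The median log2 fold change of the set was 0.01, against 0.028 over all genes tested. For 2 of the 9 genes the FPKM of KD and KD control libraries did not overlap, against 40.5% of all genes tested. ME1 stood at 32.6, 22.1 and 30.8 FPKM in KD libraries, against 37.2, 40.0 and 41.2 FPKM in KD control libraries. All KD libraries were below all controls, with KD replicate 2 the lowest, and the log2 fold change was -0.43 (SE 0.19, edgeR adjusted p = 0.117). NADK stood at 15.6, 16.5 and 14.1 FPKM in KD libraries, against 12.3, 13.3 and 10.6 FPKM in KD control libraries. Here all KD libraries were above all controls, at a log2 fold change of 0.40 (SE 0.16, adjusted p = 0.0931), which passed without OE control replicate 1 (0.0389).

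The other 7 genes overlapped between KD and KD control libraries. TKT stood at 699, 536 and 647 FPKM in KD libraries, against 579, 562 and 533 FPKM in KD control libraries. KD replicates 1 and 3 were above all controls and KD replicate 2 was among them. The log2 fold change of TKT was 0.20 (SE 0.14, edgeR adjusted p = 0.325). Without both libraries that stand apart, KD replicate 2 among them, it was 0.31 (adjusted p = 0.0132), where 38% of all genes were called. PGD stood at 485, 440 and 497 FPKM in KD libraries, against 547, 500 and 414 FPKM in KD control libraries, an even spread (log2 fold change 0.03, SE 0.11, adjusted p = 0.855). TALDO1 averaged 74.8 ± 11.5 FPKM in KD and 81.4 ± 5.47 FPKM in KD control libraries (SD, n = 3 each). RPIA averaged 5.44 ± 1.53 and 5.79 ± 1.01 FPKM in the same groups. PGLS averaged 28.7 ± 0.542 FPKM in KD and 27.8 ± 1.52 FPKM in KD control libraries, and RPE 32.8 ± 1.19 and 35.6 ± 2.05 FPKM. IDH1 stood at 102, 105 and 77.6 FPKM in KD libraries, against 91.6, 98.8 and 98.8 FPKM in KD control libraries. The approximate 95% interval of its log2 fold change ran from -0.54 to 0.56, and that of PGD from -0.23 to 0.30.

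**Figure D2:**
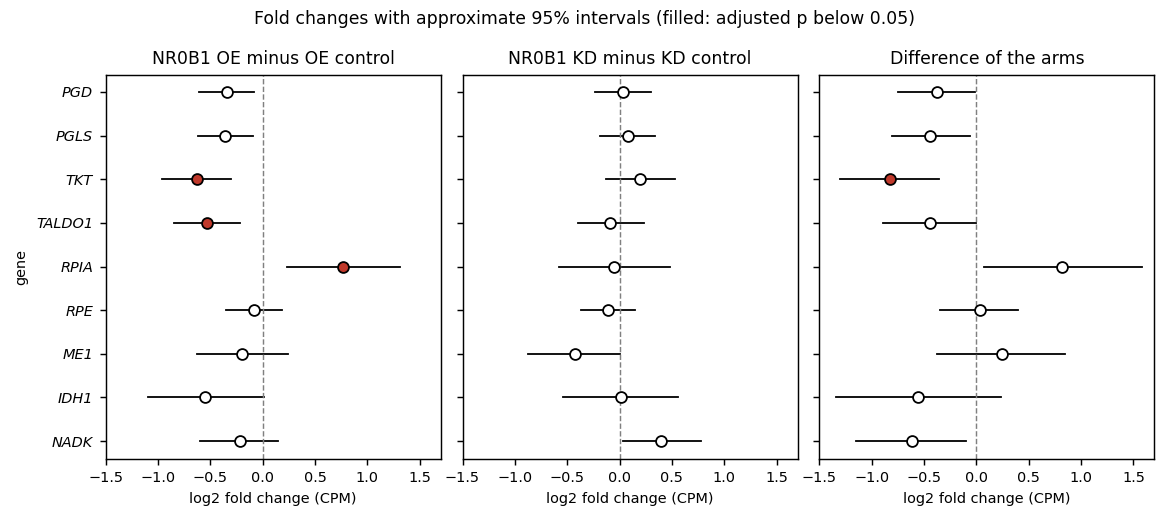
Log2 fold change of CPM (x axis) of each gene for NR0B1 OE minus OE control, NR0B1 KD minus KD control and the difference of these, with approximate 95% intervals; filled points have an adjusted p below 0.05 by edgeR. TKT is the gene whose point is filled in both the first panel and the third.

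The responses of the arms were set against each other in an interaction term, which asks whether a gene responded differently to overexpression and to knockdown. TKT passed, with a difference of -0.83 on the log2 scale (SE 0.20, edgeR adjusted p = 0.0126): it was 1.55-fold lower in OE than in OE control libraries and did not pass in the knockdown. TKT was the member called among 9, where 25.6% of the genes tested were called, 13.1% higher and 12.6% lower. The call of TKT held in 22 of 22 alternatives, with values between -1.07 and -0.75 and adjusted p-values up to 0.0426. These alternatives reuse the same libraries. Of the 3054 genes called in the main fit, between 2110 and 3048 kept their call in a single alternative. PGLS, NADK, RPIA, PGD and TALDO1 differed by -0.44, -0.62, 0.82, -0.38 and -0.44 and did not pass (adjusted p of 0.0685, 0.0663, 0.0858, 0.107 and 0.112). ME1, IDH1 and RPE did not pass either, at 0.24, -0.56 and 0.03, and without both libraries that stand apart IDH1 was at -0.11. NFE2L2, which encodes NRF2, stood at 111, 98.5 and 97.5 FPKM in OE libraries, against 79.8, 61.8 and 66.9 FPKM in OE control libraries. It stood at 45.6, 70.1 and 47.4 FPKM in KD libraries, against 124, 120 and 113 FPKM in KD control libraries. Its groups did not overlap in either arm, and its log2 fold changes were 0.53 (edgeR adjusted p = 0.0606) and -1.21 (adjusted p = 0.00123). Those of TKT were -0.63 and 0.20, of which the second did not pass (adjusted p = 0.325). A link between NFE2L2 and TKT was not tested.

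NR0B1 apart, the controls themselves differed at 3 of the 9 genes, in a comparison where 33.4% of the genes tested were called, 17.2% higher and 16.1% lower. PGD was 1.55-fold higher in OE control than in KD control libraries (log2 difference 0.64, SE 0.11, edgeR adjusted p = 0.00238), with all OE controls above all KD controls. RPE was lower in OE control libraries (-0.48, SE 0.11, adjusted p = 0.00914), and so was RPIA (-0.85, SE 0.23, adjusted p = 0.0177). The RPIA call ended without OE control replicate 3 (0.0633) or KD control replicate 2 (0.0739). TKT and NADK were at 0.38 and 0.41 and did not pass (adjusted p of 0.059 and 0.0707). For 4 of the 9 genes the FPKM of the control groups did not overlap, against 52.6% of all genes tested.

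The summed FPKM of the 9 genes was 1280 ± 31.1 in OE libraries and 1710 ± 54.9 in OE control libraries (SD, n = 3 each). It was 1380 ± 120 in KD libraries and 1340 ± 91.1 in KD control libraries. PGD and TKT made up between 76.2% and 85.2% of this sum in every library. The ratio of PGD to TKT was 1.53, 1.15 and 1.25 in OE libraries, against 1.29, 0.923 and 0.943 in OE control libraries. It was 0.693, 0.821 and 0.769 in KD libraries, against 0.945, 0.889 and 0.776 in KD control libraries. The ratio overlapped between groups within each arm. The ratio of RPE to RPIA, the enzymes that compete for ribulose phosphate, was 4.92, 3.77 and 4.2 in OE libraries, against 9.52, 6.69 and 9.43 in OE control libraries. All OE libraries were below all OE controls, whereas KD libraries (6.4 ± 1.98) and KD control libraries (6.28 ± 1.11) overlapped (SD, n = 3 each). The ratio rests on RPIA, at 97 to 262 expected counts a library, whose call with overexpression ended in 12 of 23 alternatives. RPE itself was at -0.08 with overexpression (edgeR adjusted p = 0.642).

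**Figure D3:**
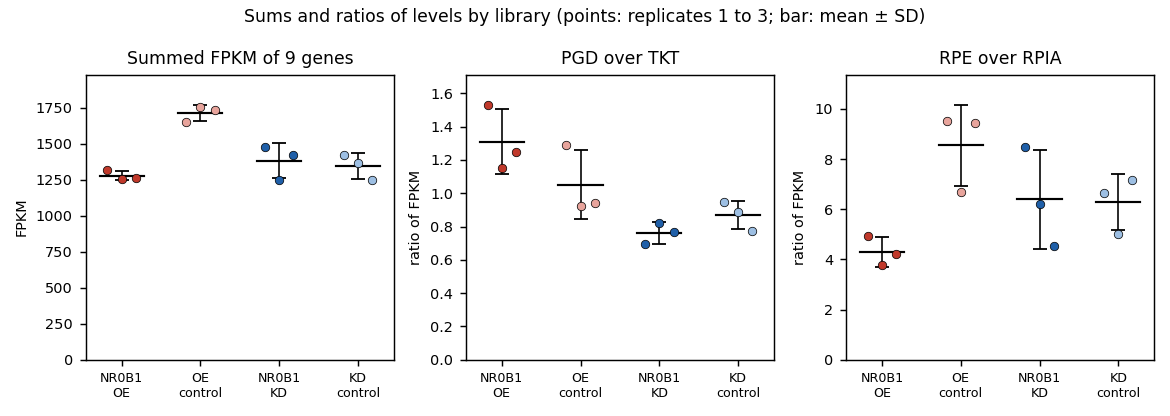
Summed FPKM of the 9 genes and ratios of FPKM of PGD to TKT and of RPE to RPIA (y axes, from 0) in each library of NR0B1 OE, OE control, NR0B1 KD and KD control cells; points are replicates 1 to 3, bars are means ± SD. The sum is 1280 in OE and 1710 in OE control libraries, and the RPE to RPIA ratio is 4.3 in OE and 8.55 in OE control libraries on average.

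The 9 genes have 42 Ensembl transcript rows in the table, of which 38 held counts in at least 1 library. Shares of these transcripts are estimates by the authors' quantification and are given as a description with no test. TKT-202 (ENST00000423516) was the main TKT transcript, with 71.8% ± 2.0 of the TKT FPKM in OE and 68.6% ± 1.9 in OE control libraries (SD, n = 3 each). TKT-203 (ENST00000423525) held 20.2% ± 0.83 in OE libraries and 29.3% ± 2.3 in OE control libraries, and the highest OE share of 21.1% lay below the lowest OE control share of 27.2%. In FPKM, TKT-203 averaged 91.7 ± 10.1 in OE and 204 ± 49.8 in OE control libraries, while TKT-202 averaged 326 ± 19.6 and 474 ± 80.2. TKT-208 (ENST00000462138) was at 36.4 ± 10.9 FPKM in OE and 13.4 ± 5.58 FPKM in OE control libraries. In the knockdown arm TKT-203 held 26.2% ± 0.96 in KD and 27.9% ± 2.2 in KD control libraries.

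PGD-201 (ENST00000270776) held 87.6% ± 1.8 of the PGD FPKM in OE and 93.4% ± 2.5 in OE control libraries (SD, n = 3 each), with PGD-203 at 8.98% ± 0.90 and 3.75% ± 3.6. TALDO1-201 held between 87.6% and 96.1% of the TALDO1 FPKM. The assembled TALDO1 row averaged 92.5 ± 10.2 FPKM in OE and 111 ± 40 FPKM in OE control libraries, which overlapped, with 1 control library at 157 FPKM. NADK-201 held 82.3% ± 16 of the NADK FPKM in OE and 79.5% ± 9.7 in OE control libraries, and 97.7% ± 1.7 in KD and 96.4% ± 4.0 in KD control libraries. RPIA and ME1 had a single transcript row each. RPE was spread over 15 rows, of which RPE-202 held the most, 56.6% ± 4.5 in OE and 53.6% ± 4.1 in OE control libraries.

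**Figure D4:**
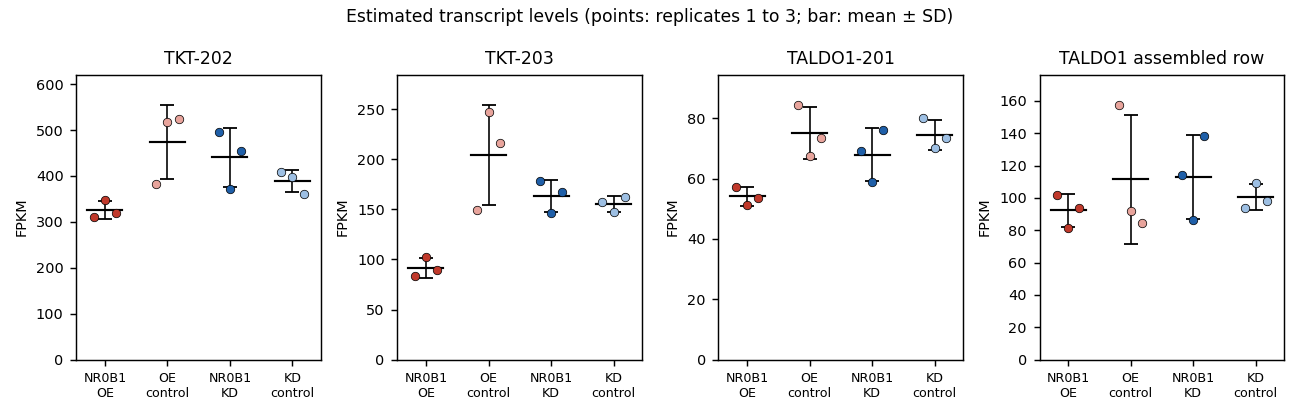
Estimated FPKM (y axis, from 0) of TKT-202, TKT-203, TALDO1-201 and the assembled row with the symbol TALDO1 in each library of NR0B1 OE, OE control, NR0B1 KD and KD control cells; points are replicates 1 to 3, bars are means ± SD. TKT-203 averages 91.7 in OE and 204 in OE control libraries, while the assembled TALDO1 row overlaps between these groups.

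Around the set, other genes of the pathway and of NADPH supply are described by lists. Of all genes tested, the overexpression arm had 18.1% called (9.87% higher, 8.2% lower), at a median log2 fold change of -0.031, and the knockdown arm 23.9% (12.4% higher, 11.5% lower), at a median of 0.028. Without both libraries that stand apart these shares were 37.9% and 38.0%. The list of further pentose phosphate genes lost 1 gene after the data had been seen, so its counts and the genes named from it describe the shortened list. Of 7 tested genes left 0 passed edgeR's test with overexpression, against 18.1% of all genes, and the list's median was -0.25. The most abundant, the phosphoribosyl pyrophosphate synthetases PRPS1 and PRPS2, averaged 38.1 and 36.8 FPKM in OE libraries, against 31.2 and 36.1 FPKM in OE control libraries. In the knockdown 1 of the 7 was called (14.3%, against 23.9% of all genes; median 0.34), PRPS2, which rose (log2 fold change 0.61, SE 0.15, adjusted p = 0.0159). Of 10 tested genes listed as other NADPH sources, whose use of NADP or NAD was not measured, 1 fell with overexpression and 0 rose. This was 10%, against 18.1% of all genes, at a median of -0.09. The gene was the mitochondrial glutamate dehydrogenase GLUD1 (-0.74, SE 0.14, adjusted p = 0.00643). In the knockdown 3 of these 10 fell (30%, against 23.9% of all genes; median -0.07), the malic enzyme ME2 (-0.34, adjusted p = 0.0159) and the folate enzymes MTHFD2 (-0.89, adjusted p = 0.0215) and ALDH1L2 (-1.02, adjusted p = 0.0193). Without both libraries that stand apart, the calls with overexpression were 1 of the 7 and 5 of the 10, against 37.9% of all genes, and those in the knockdown were 2 of the 7 and 5 of the 10, against 38.0%.

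Of 12 NADPH-using enzymes, a list also shortened after the data had been seen, 2 fell with overexpression (16.7%, against 18.1% of all genes; median -0.14), the aldose reductase AKR1B1 (513 FPKM in OE and 1130 FPKM in OE control libraries, log2 fold change -1.16, edgeR adjusted p = 0.00937) and the biliverdin reductase BLVRB (-0.62, adjusted p = 0.0438). In the knockdown 1 of the 12 rose (8.33%, against 23.9% of all genes; median -0.07), the fatty acid synthase FASN (1.0, adjusted p = 0.029). Of 7 tested genes of NAD supply, NAPRT rose with overexpression (0.73, adjusted p = 0.0294) and the NAD synthetase NADSYN1 fell (-0.42, adjusted p = 0.0327), 28.6% of the list against 18.1% of all genes (median -0.27). NADSYN1 was the 1 of these 7 called in the knockdown (14.3%, against 23.9% of all genes; median 0.42), where it rose (0.42, adjusted p = 0.0256), and its arms differed by -0.84 (adjusted p = 0.00484). Of 10 glycolytic genes next to the pathway 3 fell with overexpression (30%, against 18.1% of all genes; median -0.14), the phosphofructokinases PFKL (-0.53, adjusted p = 0.00677) and PFKM (-0.51, adjusted p = 0.036) and the aldolase ALDOA (-0.49, adjusted p = 0.0353). In the knockdown 0 of the 10 passed (23.9% of all genes; median -0.11), among them GAPDH at -0.11 and TPI1 at 0.10. Without both libraries that stand apart, the NADPH users had 6 calls of 12 and the glycolytic genes 4 of 10 in the OE arm, against 37.9% of all genes. In the KD arm they had 5 of 12 and 1 of 10, against 38.0%.

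Of 12 further NRF2 targets, 2 of which are also in the list of NADPH users, 2 rose and 1 fell with overexpression (25%, against 18.1% of all genes; median 0.35). They were OSGIN1 (log2 fold change 2.76, edgeR adjusted p = 0.003), HMOX1 (1.14, adjusted p = 0.0497) and EPHX1 (-0.60, adjusted p = 0.0341). In the knockdown 0 of the 12 passed (23.9% of all genes; median -0.04), and the most abundant, AKR1B10 and NQO1, were at -0.11 and -0.13. Of 6 genes that regulate NRF2 or partner with it, the small MAF protein MAFK (1.81, adjusted p = 0.000373) and KEAP1 (0.71, adjusted p = 0.0186) rose with overexpression, 33.3% of the list against 18.1% of all genes (median 0.50). In the knockdown NFE2L2, MAFK (-1.11, adjusted p = 0.00136) and MAFF (-1.79, adjusted p = 0.0233) fell, 50% of the list against 23.9% of all genes (median -0.66). Without both libraries that stand apart, 7 of the 12 targets (6 higher, 1 lower) and 5 of the 6 regulators were called in the OE arm, against 37.9% of all genes. In the KD arm these were 4 of the 12 (4 higher) and 5 of the 6, against 38.0%.

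The members varied over the 12 libraries by between 0.201 (PGLS) and 0.411 (RPIA), as SD of log2 CPM. For the most variable genes of the set, RPIA, IDH1 and PGD, the tested genes with the most similar profile were found by the root mean square difference of centred log2 CPM over 12 libraries. Nearest to PGD were HIGD2A (0.09), LMAN2 (0.111) and FGFRL1 (0.113). Nearest to RPIA were NAPRT (0.169), B9D2 (0.197) and IPPK (0.199). Nearest to IDH1 were DECR1 (0.171), FAM13A (0.179) and TMEM69 (0.181). Within the set, the most similar pair was TALDO1 and PGLS (0.179), and the least similar was RPIA and IDH1 (0.649). These profiles share library preparation, depth and the group structure and are given as a description.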

How the data were processed

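The authors deposited a table of transcripts with expected counts and FPKM for each of 12 libraries. The tools, per the submitters' processing notes, were RSEM, StringTie 1.3.1, HISAT2 2.0.5, Bowtie2 2.2.8 and fastp; the notes name mouse builds while the identifiers are human, so coordinates are from GENCODE 29 (GRCh38). The sources used here do not give filters, annotation or strand use. The deposited expected counts and the deposited FPKM of the 82270 Ensembl rows were summed by symbol into 19647 genes, and counts were rounded; 13977 assembled rows were left out and added as an alternative. Symbols turned into dates (184) were restored from the transcript identifiers. Genes with 1 FPKM or more in at least 3 libraries (11908) were tested with edgeR 4.0.16 (glmQLFit and glmQLFTest, robust, TMM) in R 4.3.3, with 12 libraries in a fit of 4 group means. SE is the absolute log2 fold change over the square root of F, and intervals are approximate. DESeq2 1.42.0 and limma 3.58.1 on log2(FPKM + 1) are alternatives; fold changes on that scale understate low genes. The fit was also run on counts simulated from the means and dispersions of these data. The simulated libraries were independent, so this does not cover libraries that stand apart. The members and lists were chosen with earlier results of these data known. Genes named are the 9 members, NR0B1, NFE2L2, KEAP1, up to 4 called genes a list and arm by adjusted p (else the 2 most abundant), and the 3 nearest profiles; KANSL1L was added after its values were seen. A gene written into the list of other pentose phosphate genes was deleted after the data had been seen, on an assumption that it was not to be reported and not for its values; no check had asked for this. A gene of the list of NADPH users was taken out when it was named as withheld, and neither gene is reported here.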

Additional observations from a re-analysis of the deposited data

Results flagged for a closer look

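TKT is singled out because its responses in the arms differed by the interaction test: the difference of the log2 fold changes was -0.83 (SE 0.20, edgeR adjusted p = 0.0126). TKT was lower in 3 of 3 OE libraries than in every OE control library, and higher in 2 of 3 KD libraries than in every KD control library. OE control replicate 1 and KD replicate 2 were the lowest TKT libraries of their groups. Leaving both out therefore widens the difference, which was then -1.07 (edgeR adjusted p = 0.000147), and adds no support. That setting called 38.8% of all genes, against 25.6% in the main fit.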

How the results depend on the processing

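With overexpression 3 members were called, and 5 with DESeq2 (25.9% of all genes) or with a filter of 5 FPKM (22.5%), adding PGD and PGLS each time; leaving out 1 library gave between 0 and 5. In the knockdown 0 were called, between 0 and 1 without 1 library, and 1 (TKT) without both libraries that stand apart (38% of all genes). For the difference of the arms 1 was called, 4 with DESeq2 (31.9% of all genes), 3 with the filter of 5 FPKM (29.8%), 2 without both libraries (38.8%) and between 1 and 2 without 1 library. Between the controls 3 were called, 5 without both libraries (47.8% of all genes) and between 2 and 4 without 1 library. In CPM 5, 3 and 5 members did not overlap in the OE arm, the KD arm and the controls, against 43.5%, 40.9% and 54% of all genes; the FPKM counts were 6, 2 and 4. Genes called over the whole table numbered 2152 (OE) and 2851 (KD), and 4460 and 4480 without both libraries. They ran from 810 to 3312, from 1502 to 3419 and, for the controls (3973), from 2554 to 4924 without 1 library. With limma on log2(FPKM + 1), 40.9% of KD calls and 40.4% of control calls were higher, against 51.9% and 51.6%.

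Of 819 values of single members under alternatives, 732 kept direction and side of the threshold, 29 gained a call and 23 lost one. A further 35 changed sign, all of them uncalled. With overexpression RPIA lost its call in 12 of 23 alternatives, TALDO1 in 5 and TKT in 4. In the knockdown IDH1 went to -0.01 with library size only, -0.04 with limma at either pseudocount, -0.02 with no filter, 0 in the replicate block fit and -0.05 without both libraries. PGD went to -0.03 with limma there, and TALDO1 to 0.05 with assembled rows and 0.04 without both libraries. RPE went to -0.07 with limma and 0 with the filter of 5 FPKM in the difference of the arms; without both libraries RPE and ME1 went to 0 and 0.03 with overexpression, and TALDO1 to -0.02 between controls. Without 1 library the ranges were -0.05 to 0.12 (IDH1), -0.07 to 0.09 (PGD), -0.30 to 0.12 (RPIA) and -0.19 to 0.03 (TALDO1) in the knockdown. They were -0.34 to 0.03 (ME1) and -0.16 to 0 (RPE) with overexpression and -0.05 to 0.11 (RPE) in the difference. Between controls they were -0.28 to 0.09 (ME1), -0.08 to 0.08 (PGLS) and -0.02 to 0.18 (TALDO1). The cause was not tested.

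Replicate numbers are shared between groups, and the deviations of same-numbered libraries correlated at 0.231, 0.163 and 0.004 in the OE arm and 0.02, -0.082 and -0.07 in the KD arm. Differently numbered libraries ran from -0.221 to 0.167 in the OE arm and from -0.092 to 0.117 in the KD arm. The numbers were not taken as pairs, although OE replicate 1 was at -0.182 and -0.163 with OE control replicates 2 and 3. With the replicate block, 2 members were called with overexpression, 0 in the knockdown, 1 in the difference and 3 between controls, and RPIA went to an adjusted p of 0.0623. The depth limits RPIA most, at 97 counts in its lowest library.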

Other observations

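Minor transcripts of TKT and PGD held these shares. TKT-208 held 7.99% ± 2.2 of the TKT FPKM in OE and 2.07% ± 1.2 in OE control libraries (SD, n = 3 each). PGD-203 held between 8.1% and 9.9% of the PGD FPKM in OE libraries and between 0.9% and 7.8% in OE control libraries. In the knockdown arm TKT-208 held 3.72% ± 0.32 in KD and 2.44% ± 0.48 in KD control libraries, and PGD-203 2.15% ± 1.3 in KD and 2.34% ± 0.73 in KD control libraries. These are estimated shares and were not tested.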
